A study of Homo sapiens with 24 samples.

Results

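The genes of pyruvate entry into mitochondria, of the pyruvate dehydrogenase complex with its kinases and phosphatases, and of the tricarboxylic acid (TCA) cycle were followed in HEK293 cells given the peptide MOTS-c. The set was chosen by gene symbol, as all probes of the intensity table annotated to 33 named genes. Of these, 30 had an annotated probe and all 30 were measured, among 13283 genes tested in all. They were covered by 44 probes, of which 39 were kept, and 8 genes had more than 1 kept probe. PDP2, SDHB and FH had no annotated probe here and were not analysed here.

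HEK293 is an established human embryonic kidney cell line, and MOTS-c is a 16-residue peptide encoded within the mitochondrial 12S ribosomal RNA gene. Cells received water (the controls) or 10 µM MOTS-c and were harvested after 4 h or 72 h, which gave 4 groups of 6 bead arrays: control at 4 h, MOTS-c at 4 h, control at 72 h and MOTS-c at 72 h. All groups are the same cell line, with no genetic change named in the labels. The labels do not say whether the 6 samples of a group were separate cultures. If they were not, the spread behind every p-value is technical.

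Pyruvate made by glycolysis crosses the inner mitochondrial membrane through a carrier made of MPC1 and MPC2. Inside, the pyruvate dehydrogenase complex turns it into acetyl-CoA, while pyruvate carboxylase (PC) turns it into oxaloacetate. The pyruvate dehydrogenase kinases PDK1 to PDK4 switch the complex off by phosphorylating its PDHA1 subunit, and the phosphatases PDP1 and PDP2 switch it on again. Acetyl-CoA is then oxidised in the TCA cycle, which feeds electrons to the respiratory chain and supplies precursors for biosynthesis. The arrays measured transcripts, not enzyme activity, phosphorylation or flux.

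A level is the background-corrected, quantile-normalized log2 intensity of a gene's brightest probe, and a difference is the mean of the treated (or later) group minus that of the control (or earlier) group. A gene was called where its limma p-value, adjusted over all 13283 genes by the Benjamini-Hochberg method, was under 0.05. Mean probe intensity ran from 399.2 to 629.5 over the arrays. Between 20719 and 21703 probes were detected per array at 4 h and between 21741 and 23405 at 72 h. Every 72 h array thus had more detected probes than every 4 h array, and the part of this in the changes with time was not tested. Of 8 genes listed as typical of HEK293, 7 were detected on all 24 arrays, and the keratinocyte genes KRT5, KRT14 and KRT1, the endothelial genes PECAM1 and CDH5, the T cell gene CD3E and the hepatocyte gene APOA1 were detected on none. At 72 h the summed linear level of the HEK293 genes was 17000 to 18900 in controls and 18900 to 19600 in treated cells, and 5 of the 8 were called, 2 higher and 3 lower. The sum over the 3 measured of 4 fibroblast markers was 414 to 472 in controls and 381 to 416 in treated cells. The 1 measured of 3 endothelial markers, VWF, was at 40 to 62.3 against 30.9 to 35.2. For 2 measured of 5 leukocyte markers the sums were 455 to 754 against 446 to 513. The 1 measured of 3 hepatocyte markers was detected on all 24 arrays, at 49.3 to 66.6 against 44 to 72.2. The part of these markers in the results was not tested. Control replicate 5 at 72 h stood apart from the other arrays of its group, with the highest mean intensity (596.9), and was the highest of the 6 for 13 of the 30 members and the lowest for 4. Leaving it out moved a member's 72 h difference by at most 0.12, the shift of SDHD. Values without it are given below for several genes, and most of those are larger in size. Other called differences shrank without it: SDHC from 0.31 to 0.26 (limma adjusted p = 0.0358) and SUCLG1 from 0.17 to 0.14 (limma adjusted p = 0.0419). IDH2 went from 0.37 to 0.35 and PDHB from -0.34 to -0.31.

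At 4 h no member differed between MOTS-c and control at the adjusted threshold. The count was 0 of 30, and over all genes tested 0.00753% were called, by limma adjusted p. The differences of the 30 genes ran from -0.44 to 0.18 with a median of 0.02, and the median of all genes tested was -0.00. At an unadjusted limma p under 0.05 there were 3 of 30 members, all with negative differences, beside 1567 of the 13283 genes tested.

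The smallest unadjusted p at 4 h belonged to PDK2, one of the 4 kinases that inactivate pyruvate dehydrogenase. Its control levels lay between 7.80 and 7.96 (median 7.84) and its treated levels between 7.58 and 7.76 (median 7.64). The difference was -0.19 and was not called (SE 0.058, limma adjusted p = 0.237). All 6 treated arrays were below all 6 control arrays, but PDK2 was picked here by its p. The share of all genes tested without overlap was counted for the MOTS-c comparison at 72 h alone. PDP1, the phosphatase that reactivates the complex, had levels of 5.86 to 6.70 (median 6.20) in controls and 5.27 to 6.35 (median 5.93) in treated cells, with a difference of -0.44 (SE 0.18, limma adjusted p = 0.336). Its groups overlapped, and it was detected on 4 of 6 treated arrays. PC differed by -0.25 (SE 0.098, limma adjusted p = 0.323), also with overlapping groups, and was detected on 5 of 6 control and 3 of 6 treated arrays.

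After 72 h, 19 of the 30 members were called, 16 of them higher and 3 lower in MOTS-c treated cells. Over all genes tested, 45.1% were called, 22.1% higher and 22.9% lower. The median difference of the members was 0.20, and that of all genes 0.01. The higher members included the pyruvate carrier subunit MPC2, 4 of 5 subunits of the pyruvate dehydrogenase complex and 3 of its 4 kinases, and the 3 lower ones were OGDH, PC and PDHB. Levels of the 2 groups did not overlap for 9 members (MPC2, PC, PDHA1, PDHB, PDK3, ACO1, IDH2, OGDH and MDH1), as was so for 22.4% of all genes tested. In these bulk samples, a change in the share of cells that express a gene and a change in the RNA per cell cannot be told apart.

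**Figure D1:**
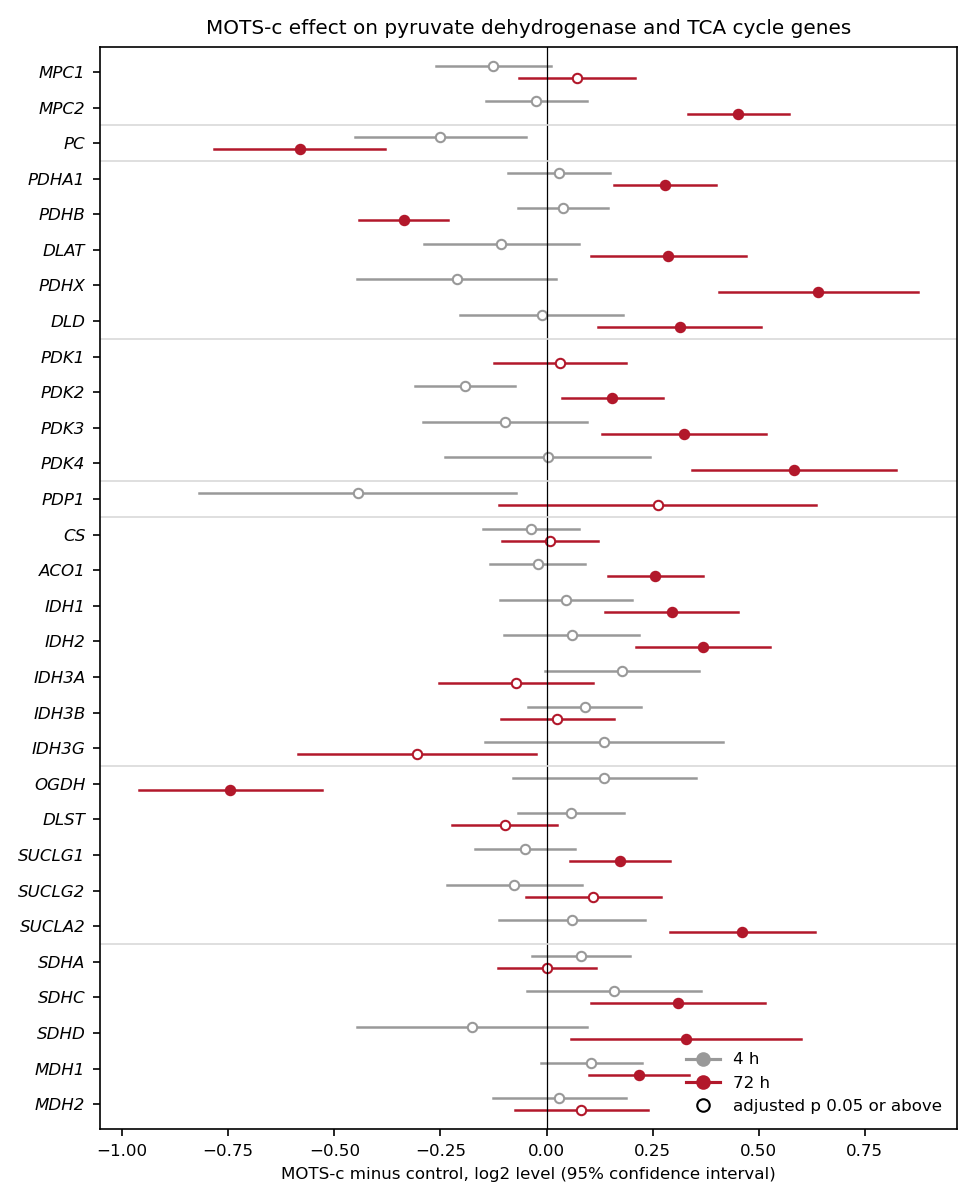
Difference in log2 level between MOTS-c and control cells at 4 h (grey) and 72 h (red) for each of the 30 measured genes, ordered by role from the pyruvate carrier to malate dehydrogenase, with 95% confidence intervals from the limma model. Filled points have an adjusted p under 0.05, as 19 do at 72 h and 0 at 4 h; PDK1, which was undetected at 4 h, has no 4 h point.

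The 2 subunits of the pyruvate carrier did not give the same call at 72 h. MPC2 lay between 10.16 and 10.38 (median 10.28) on the control arrays and between 10.55 and 10.85 (median 10.77) on the treated arrays. Every treated array was above every control array, a 1.37-fold difference (0.45, SE 0.058, limma adjusted p = 5.02e-07). At 4 h the same gene had medians of 10.85 in controls and 10.81 in treated cells. Its partner MPC1 differed by 0.07 at 72 h (95% confidence interval -0.06 to 0.21, limma adjusted p = 0.403).

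PC, the enzyme that carboxylates pyruvate to oxaloacetate, was lower at 72 h. Control levels were 5.79 to 6.24 (median 5.94) and treated levels 5.31 to 5.50 (median 5.41). The groups did not overlap, and the difference was -0.58 (SE 0.098, limma adjusted p = 2.52e-05). At 4 h the control median had been 5.63. PC is a dim probe: it was detected on 6 of 6 control and 4 of 6 treated arrays at 72 h, and the other probes annotated to it were not kept.

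All 5 subunits of the pyruvate dehydrogenase complex were called at 72 h, 4 higher and 1 lower. The 2 subunits of the first enzyme, E1, had opposite signs. PDHA1, the E1 alpha subunit that carries the phosphorylation sites, lay between 10.94 and 11.21 (median 11.12) in controls and between 11.30 and 11.46 (median 11.38) in treated cells. PDHB, the E1 beta subunit, lay between 11.61 and 11.81 (median 11.69) in controls and between 11.32 and 11.43 (median 11.35) in treated cells. Neither pair of groups overlapped: all treated arrays were above the controls for PDHA1 (0.28, SE 0.058, limma adjusted p = 0.000314) and below them for PDHB (-0.34, SE 0.051, limma adjusted p = 6.07e-06).

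At 4 h both E1 genes had close group medians, 11.40 in control and treated cells for PDHA1, and 11.64 and 11.67 for PDHB. From 4 h to 72 h PDHA1 fell by 0.26 in controls (limma adjusted p = 0.000318) and PDHB fell by 0.32 in treated cells (limma adjusted p = 2.09e-05). The other 2 changes with time were 0.06 for PDHB in controls and -0.02 for PDHA1 in treated cells, neither called. All treated PDHB arrays at 72 h lay below every array of its other 3 groups, whereas the highest 72 h control array of PDHA1, at 11.21, reached the lowest 4 h control array, at 11.20.

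PDHX, the E3-binding protein that holds the third enzyme in the complex, had the largest positive difference of the members at 72 h. It ranged from 8.42 to 9.24 (median 8.56) in controls and from 9.01 to 9.54 (median 9.30) in treated cells. The ranges met only through control replicate 5, at 9.24, while the next highest control array was at 8.65. The difference was 0.64 (SE 0.114, 1.56-fold, limma adjusted p = 5.00e-05), and 0.76 without that array (SE 0.095, limma adjusted p = 4.04e-07). DLAT, the E2 core enzyme, was higher by 0.29 (SE 0.089, limma adjusted p = 0.00969), or by 0.34 without replicate 5. DLD, the E3 enzyme that the oxoglutarate dehydrogenase complex also uses, was higher by 0.31 (SE 0.094, limma adjusted p = 0.00764). The DLAT groups overlapped through control replicate 5 alone, at 8.91, and the DLD groups overlapped too.

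The start regions of PDHX and PDHB are shown with that of SDHD, a succinate dehydrogenase subunit, because PDHX and SDHD fell most with time in control cells while PDHB was lower in treated cells. Each window runs from 250 bases before to 50 bases after an annotated transcript start, in RefSeq's GRCh38.p14 assembly, read 5′ to 3′ on the gene's strand. The second annotated start is used for PDHX, at chr11:34916368-34916667 on the plus strand, with PDHB at chr3:58433783-58434082 on the minus strand and SDHD at chr11:112086623-112086922 on the plus strand. Capitals mark matches to 3 motifs searched on both strands: AGATGGCGG, TCAAGGTCA and CGCATGCG.
PDHX: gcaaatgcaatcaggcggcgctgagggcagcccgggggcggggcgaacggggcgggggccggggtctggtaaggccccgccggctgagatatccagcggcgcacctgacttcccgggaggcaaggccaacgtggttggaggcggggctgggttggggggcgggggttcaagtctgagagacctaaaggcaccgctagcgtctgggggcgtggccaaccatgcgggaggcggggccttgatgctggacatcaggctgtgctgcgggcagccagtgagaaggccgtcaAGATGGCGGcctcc
PDHB: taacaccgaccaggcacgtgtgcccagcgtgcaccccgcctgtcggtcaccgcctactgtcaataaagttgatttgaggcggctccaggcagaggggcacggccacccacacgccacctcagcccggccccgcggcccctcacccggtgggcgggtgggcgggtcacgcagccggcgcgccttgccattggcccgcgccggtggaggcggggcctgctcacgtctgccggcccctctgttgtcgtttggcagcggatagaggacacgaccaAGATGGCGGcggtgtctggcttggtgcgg
SDHD: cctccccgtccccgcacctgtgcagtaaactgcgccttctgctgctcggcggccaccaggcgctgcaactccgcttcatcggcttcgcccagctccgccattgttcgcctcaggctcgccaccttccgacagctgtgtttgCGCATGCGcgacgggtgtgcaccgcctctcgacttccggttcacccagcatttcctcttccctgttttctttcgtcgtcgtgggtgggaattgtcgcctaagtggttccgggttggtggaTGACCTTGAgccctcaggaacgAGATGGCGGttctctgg

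The window of the first annotated start of PDHX, at chr11:34916188-34916487, held none of the motifs. All 3 windows shown hold AGATGGCGG just downstream of the start, beginning at transcript base 37 in PDHX, 22 in PDHB and 34 in SDHD. These letters, which include ATG and a core also found in sites of the factor YY1, were chosen after the sequences had been seen. They occur in 1.47% of 35116 RefSeq windows of this length and in 4 of 41 windows of the members, the fourth being SDHB. TCAAGGTCA, the site of the oestrogen-related receptors, was found in 0.353% of all windows and among the members in SDHD alone, on the opposite strand at transcript base 12. CGCATGCG, the centre of the site of the factor NRF1, was found in 2.02% of all windows and in SDHD, 109 bases before the start. TGACGTCA, the site of CREB, occurred in 1.85% of all windows and, of the members, in SDHB. Of the 33 genes, 30 had a window, and OGDH, SDHC and PDP1 had none. A match describes the letters of the window and not binding, and genes with the same letters differed in the sign of their 72 h difference.

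Of the kinases, 3 of 4 were called higher at 72 h and none lower. PDK4, the kinase known for its induction by fasting and fatty acids, lay between 6.30 and 7.24 (median 6.64) in controls and between 6.97 and 7.45 (median 7.27) in treated cells. The control array at 7.24 was replicate 5, and all other controls were below all treated arrays. The difference was 0.58 (SE 0.117, limma adjusted p = 0.000206), and 0.70 without replicate 5 (limma adjusted p = 2.62e-06). At 4 h the PDK4 medians were 7.26 in control and 7.32 in treated cells.

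PDK3, the kinase with the highest activity toward the complex in vitro, had levels of 10.17 to 10.46 (median 10.27) in controls and 10.47 to 10.88 (median 10.58) in treated cells at 72 h. The groups did not overlap (0.32, SE 0.094, limma adjusted p = 0.00637), and without control replicate 5 the difference was 0.36. At 4 h they overlapped almost wholly, with 10.18 to 10.70 (median 10.55) in controls and 10.13 to 10.70 (median 10.42) in treated cells. PDK2, the most widely expressed kinase, ranged from 6.83 to 7.22 (median 7.00) in controls and from 7.12 to 7.23 (median 7.17) in treated cells at 72 h. Those ranges overlapped, and its small difference of 0.16 (SE 0.058, limma adjusted p = 0.0303) was not called under 10 of 37 other settings, with adjusted p from 0.00538 to 0.225. One of these left out control replicate 5 (0.14, limma adjusted p = 0.0514).

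PDK1, the kinase induced in hypoxia, was near background. It was detected on no array at 4 h, where its measured levels were 4.98 to 5.22 (median 5.12) in controls and 5.09 to 5.44 (median 5.27) in treated cells, so no fold is given there. At 72 h it was detected on 4 of 6 control and 5 of 6 treated arrays, with levels of 5.25 to 5.74 (median 5.42) and 5.32 to 5.59 (median 5.51). The 72 h groups overlapped, with a difference of 0.03 (95% confidence interval -0.12 to 0.19, limma adjusted p = 0.761).

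PDP1 ranged from 5.92 to 6.78 (median 6.25) in 72 h controls and from 6.16 to 6.92 (median 6.52) in treated cells. The arrays of the 2 groups were mixed over most of this range, and the difference of 0.26 (95% confidence interval -0.11 to 0.64, limma adjusted p = 0.251) was not called. Without control replicate 5 it was 0.36.

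**Figure D2:**
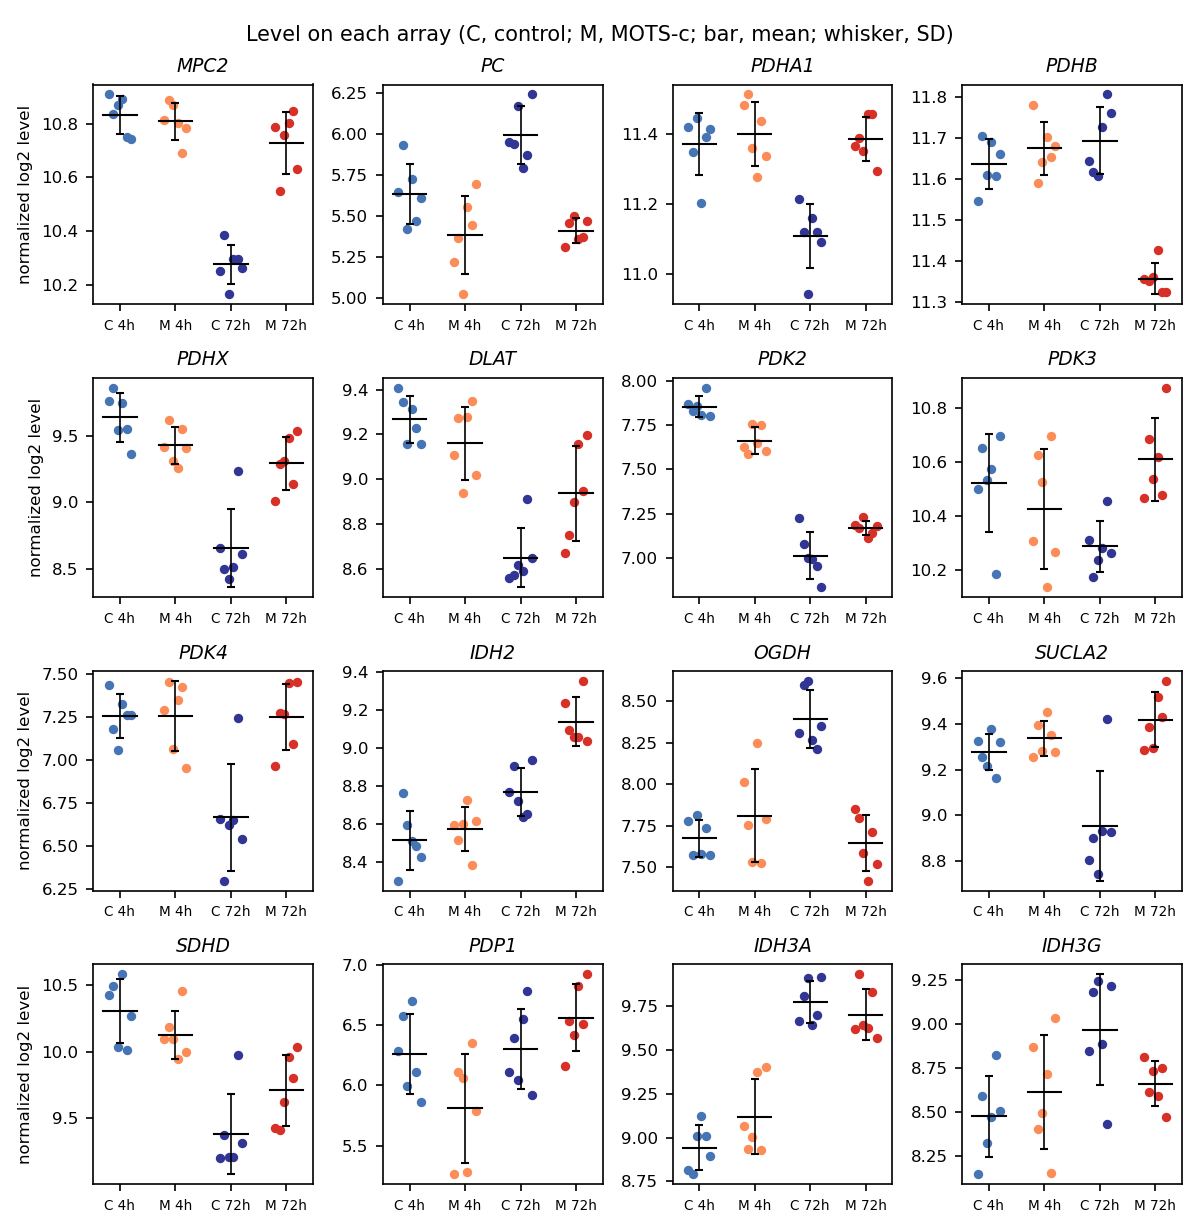
Normalized log2 level on each array for 16 genes, in control (C) and MOTS-c treated (M) cells at 4 h and 72 h, 6 arrays per group, with the group mean (bar) and SD (whisker); each panel has its own axis and the axes do not start at 0. The 72 h groups are apart for OGDH, PC, PDHB, MPC2, PDHA1, PDK3 and IDH2. For PDHX, DLAT, PDK4, SUCLA2 and SDHD, 1 control array (replicate 5) lies among the treated arrays.

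In the first segment of the cycle, from citrate to oxoglutarate, 3 of 7 genes were called at 72 h, all higher: IDH2, IDH1 and ACO1. IDH2, the mitochondrial NADP-dependent isocitrate dehydrogenase, lay between 8.64 and 8.94 (median 8.75) in controls and between 9.04 and 9.35 (median 9.08) in treated cells. These ranges did not overlap (0.37, SE 0.077, 1.29-fold, limma adjusted p = 0.000324). IDH1, its cytosolic counterpart, ranged from 9.67 to 9.99 (median 9.75) in controls and from 9.88 to 10.31 (median 10.10) in treated cells, with some overlap (0.29, SE 0.076, limma adjusted p = 0.00242, or 0.33 without control replicate 5). ACO1, the cytosolic aconitase that also acts as an iron regulatory protein, was higher by 0.26 with no overlap (SE 0.055, limma adjusted p = 0.000381).

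None of the 3 subunits of the NAD-dependent isocitrate dehydrogenase was called at 72 h. IDH3A, the catalytic subunit, had levels of 9.64 to 9.92 (median 9.76) in controls and 9.57 to 9.93 (median 9.63) in treated cells, a difference of -0.07 (95% confidence interval -0.25 to 0.11). IDH3B differed by 0.03. IDH3G, a regulatory subunit, ranged from 8.43 to 9.25 (median 9.03) in controls and from 8.47 to 8.81 (median 8.67) in treated cells. Its difference was -0.31 (SE 0.137, limma adjusted p = 0.0695), and -0.41 without control replicate 5, where it was called (adjusted p = 0.0093 by limma, with a range of 0.00341 to 0.161 over its other settings). CS, citrate synthase, differed by 0.01 (95% confidence interval -0.10 to 0.12).

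OGDH, the E1 subunit of the oxoglutarate dehydrogenase complex, had the largest difference of all members at 72 h. Control levels were 8.21 to 8.62 (median 8.33) and treated levels 7.42 to 7.85 (median 7.65). Every treated array was below every control array, a 1.68-fold difference (-0.75, SE 0.105, limma adjusted p = 1.92e-06). At 4 h the groups overlapped, with 7.57 to 7.81 (median 7.66) in controls and 7.53 to 8.25 (median 7.77) in treated cells. DLST, the E2 subunit of the same complex, differed by -0.10 at 72 h (95% confidence interval -0.22 to 0.03, limma adjusted p = 0.191), while the shared E3 subunit DLD was the one called higher above.

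Succinyl-CoA synthetase pairs the common subunit SUCLG1 with either SUCLA2, which makes the enzyme use ADP, or SUCLG2, which makes it use GDP. SUCLA2 ranged from 8.74 to 9.42 (median 8.91) in 72 h controls and from 9.29 to 9.59 (median 9.41) in treated cells. Control replicate 5, at 9.42, was the sole control array inside the treated range, and the next was at 8.93. The difference was 0.46 (SE 0.083, 1.38-fold, limma adjusted p = 5.65e-05), and 0.55 without that array. SUCLG1 was higher by 0.17 (SE 0.058, limma adjusted p = 0.016), and SUCLG2 differed by 0.11 (95% confidence interval -0.05 to 0.27, limma adjusted p = 0.259).

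Succinate dehydrogenase, complex II of the respiratory chain, is anchored in the membrane by SDHC and SDHD and carries its flavin on SDHA. Both anchor genes were higher at 72 h, and SDHA differed by 0.00 (95% confidence interval -0.12 to 0.12). SDHD ranged from 9.20 to 9.97 (median 9.26) in controls and from 9.41 to 10.03 (median 9.71) in treated cells. The ranges overlapped through control replicate 5 alone, at 9.97, the next being 9.38. The SDHD difference of 0.33 (SE 0.132, limma adjusted p = 0.0436) was not called under 11 of 37 other settings, with adjusted p from 0.0026 to 0.12 by limma. Without replicate 5 it was 0.45 (limma adjusted p = 0.0026). SDHC was higher by 0.31 (SE 0.0999, limma adjusted p = 0.0129).

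Of the malate dehydrogenases, the cytosolic MDH1 was higher in treated cells at 72 h, at 12.97 to 13.05 (median 13.01) against 12.70 to 12.85 (median 12.79) in controls. Its groups did not overlap, although the difference was small (0.22, SE 0.058, limma adjusted p = 0.00293). The mitochondrial MDH2 differed by 0.08 (95% confidence interval -0.07 to 0.24).

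The effect of MOTS-c itself differed between the 2 times for 15 members, 13 with a more positive effect at 72 h and 2 with a more negative one. Over all genes tested, 34% were called in this difference (effect at 72 h minus effect at 4 h), 16.7% more positive and 17.4% more negative, and the members' median was 0.21 against 0.00 for all genes. OGDH had the largest difference between effects, -0.88 (SE 0.148, limma adjusted p = 4.91e-05), from an effect of 0.14 at 4 h to -0.75 at 72 h. PDHX followed with 0.85 (SE 0.162, limma adjusted p = 0.000197), from -0.21 to 0.64. PDP1, not called at either time, had a difference of 0.71 between its effects of -0.44 and 0.26 (SE 0.257, limma adjusted p = 0.0343). That call was lost under other settings (adjusted p from 0.00615 to 0.0809), and PDP1 was dim.

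PDK4 had a difference between effects of 0.58 (SE 0.166, limma adjusted p = 0.00788). The other members called were SDHD (0.50), MPC2 (0.48), PDK3 (0.42), SUCLA2 (0.40), DLAT (0.39), PDK2 (0.35), IDH2 (0.31), ACO1 (0.28), PDHA1 (0.25) and SUCLG1 (0.22) with positive values, and PDHB (-0.38) with a negative one. For PC, called lower at 72 h, the difference between effects was -0.33 and was not called (limma adjusted p = 0.0671). The same held for DLD (0.33, adjusted p = 0.059) and IDH1 (0.25, adjusted p = 0.0751), and for SDHC (0.15) and MDH1 (0.11). Several of these calls depended on the setting. SDHD was not called under 17 of 36 other settings (limma adjusted p from 0.00157 to 0.0742), PDP1 under 13 of 35, SUCLG1 under 9 of 36 and IDH2 under 5 of 36. DLD was called under 12 of 36, IDH1 under 7 of 36, IDH3G under 6 of 36 and PC under 5 of 35.

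Control replicate 5 at 72 h bears on these values too. Without it the difference between effects was 0.97 for PDHX, 0.80 for PDP1, 0.70 for PDK4, 0.62 for SDHD and 0.49 for SUCLA2. DLD, IDH1 and IDH3G were then called (limma adjusted p = 0.0314, 0.0341 and 0.016), and SUCLG1 was not (limma adjusted p = 0.0546).

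In control cells most members, like most genes tested, were called between 4 h and 72 h in culture. There 23 of 30 members were called, 9 higher and 14 lower at 72 h, beside 62.6% of all genes tested, 31.9% higher and 30.7% lower. This comparison uses the same 72 h control arrays as the MOTS-c comparison at 72 h, so the 2 sets of values are not independent. In MOTS-c treated cells, which share no array with it, 13 members were called over the same interval, 7 higher and 6 lower, beside 38.1% of all genes, 19.9% higher and 18.2% lower.

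The largest falls in controls were those of PDHX, SDHD, PDK2 and IDH1. PDHX went from 9.36 to 9.87 (median 9.65) at 4 h to 8.42 to 9.24 at 72 h, with no overlap (-0.99, SE 0.114, limma adjusted p = 3.16e-08). In treated cells, at 9.26 to 9.63 (median 9.42) at 4 h, its change was -0.14 and was not called. SDHD went from 10.02 to 10.58 (median 10.35) to 9.20 to 9.97, again without overlap (-0.92, SE 0.132, limma adjusted p = 9.87e-07), and in treated cells from 9.94 to 10.45 (median 10.09) with a change of -0.42 (limma adjusted p = 0.0135). PDK2 fell by 0.84 in controls (SE 0.058, limma adjusted p = 2.06e-12) and by 0.49 in treated cells (limma adjusted p = 2.08e-07), with no overlap between times in either.

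IDH1 had levels of 10.44 to 10.69 (median 10.58) in 4 h controls and 10.51 to 10.75 (median 10.59) in 4 h treated cells. All 72 h arrays were below these, with a fall of 0.78 in controls (SE 0.076, limma adjusted p = 1.45e-09) and of 0.53 in treated cells (limma adjusted p = 4.05e-06). ACO1 fell by 0.71 in controls and by 0.44 in treated cells. MPC2, at 10.74 to 10.91 in 4 h controls and 10.69 to 10.89 in 4 h treated cells, fell by 0.56 in controls (limma adjusted p = 5.29e-09), and its change in treated cells was -0.08 (95% confidence interval -0.20 to 0.04).

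Without control replicate 5 at 72 h the falls in controls were 1.10 for PDHX, 1.04 for SDHD, 0.70 for PDK4 and 0.41 for SUCLA2.

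The largest rises with time in controls were those of IDH3A, OGDH, IDH3G and PC. IDH3A rose from 8.79 to 9.13 (median 8.95) at 4 h to 9.64 to 9.92 (0.83, SE 0.089, limma adjusted p = 6.95e-09), and in treated cells it rose by 0.58 from 8.93 to 9.41 (median 9.04), with no overlap between times in either. OGDH rose by 0.72 in controls (SE 0.105, limma adjusted p = 1.45e-06) without overlap, and its change in treated cells was -0.16 (95% confidence interval -0.38 to 0.05). IDH3G had 4 h levels of 8.15 to 8.82 (median 8.49) in controls and 8.16 to 9.03 (median 8.61) in treated cells. It rose by 0.49 in controls (SE 0.137, limma adjusted p = 0.00292) with overlapping groups, and changed by 0.05 in treated cells.

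PC, with 4 h levels of 5.42 to 5.93 in controls and 5.02 to 5.69 (median 5.40) in treated cells, rose by 0.36 in controls (SE 0.098, limma adjusted p = 0.00259) and changed by 0.03 in treated cells. Before normalization the median intensity of PC in controls was 94.8 at 4 h and 94.5 at 72 h. PDK4, at 7.06 to 7.44 in 4 h controls and 6.95 to 7.46 in 4 h treated cells, fell by 0.59 in controls (limma adjusted p = 0.000101), and its change in treated cells was -0.01 (95% confidence interval -0.25 to 0.23). SUCLA2, at 9.16 to 9.38 and 9.26 to 9.45 in the same 4 h groups, fell by 0.32 in controls (limma adjusted p = 0.0016) and changed by 0.08 in treated cells. PDK1 was called with time in both on its measured levels (limma adjusted p = 0.000212 in controls and 0.0161 in treated cells), but it was undetected at 4 h. With its 4 h levels raised to the lowest detected level of each array, the means differed by 1.01-fold in controls and 1.04-fold in treated cells. These folds take no account of the spread and were not tested. Their 72 h means include arrays on which PDK1 was undetected.

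For PDHB, PDP1 and IDH2, whose difference between effects was called (above), the larger change with time was that of the treated cells. PDHB fell by 0.32 in treated cells, against a change of 0.06 in controls. PDP1 rose by 0.75 in treated cells (SE 0.182, limma adjusted p = 0.00187), against a change of 0.04 in controls. IDH2, at 8.30 to 8.76 (median 8.50) in 4 h controls and 8.39 to 8.73 (median 8.60) in 4 h treated cells, rose by 0.57 in treated cells and by 0.26 in controls (limma adjusted p = 2.14e-06 and 0.00553). Of the 23 members called in controls, 21 had a smaller change in treated cells. The 23 were chosen on the control values, and of all genes called in controls by the same rule 87.7% had a smaller change in treated cells, so the count is close to that of genes at large.

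**Figure D3:**
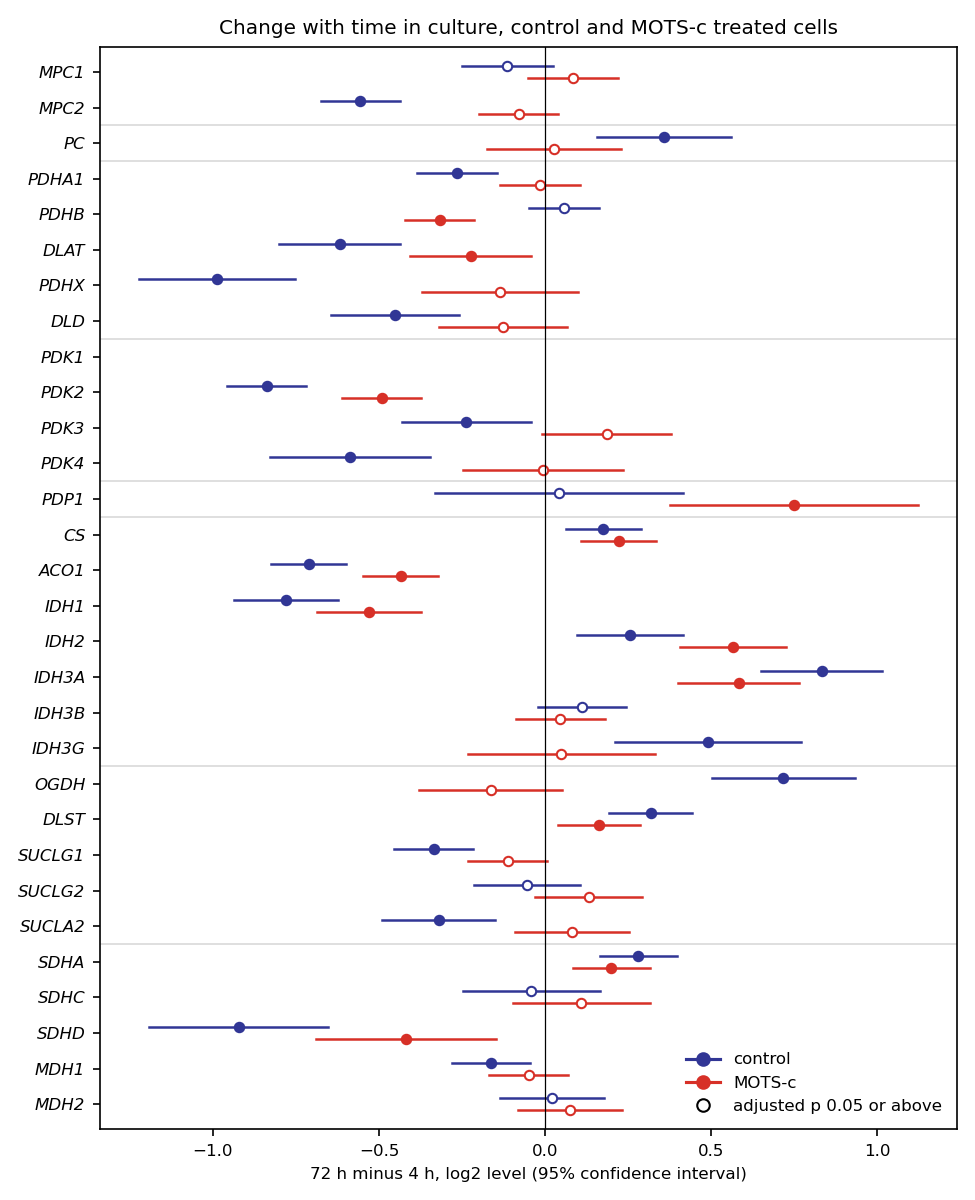
Change in log2 level from 4 h to 72 h in control (blue) and MOTS-c treated (red) cells for each measured gene, with 95% confidence intervals from the limma model; filled points have an adjusted p under 0.05. PDHX, SDHD, PDK2 and IDH1 are farthest left and IDH3A and OGDH farthest right in controls, and the treated value lies nearer 0 for each of them; PDK1, undetected at 4 h, is not drawn.

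Where a gene had several probes, they could be compared. Both probes of SUCLA2 (0.46 and 0.56), IDH1 (0.29 and 0.28) and SDHC (0.31 and 0.34) were called higher at 72 h. The second probe of PDK3 differed by 0.15 and that of OGDH, which was dim, by -0.15, neither called (limma adjusted p over probes = 0.118 and 0.191), so the OGDH result rests on its brightest probe. For CS the brightest probe differed by 0.01, another by -0.10, and the dimmest by -0.25 (SE 0.1001, limma adjusted p over probes = 0.0473). That same CS probe rose by 1.06 with time in controls, against 0.18 for the brightest one. MPC1 changed by -0.11 with time in controls at its brightest probe and by 0.36 at the other.

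**Figure D4:**
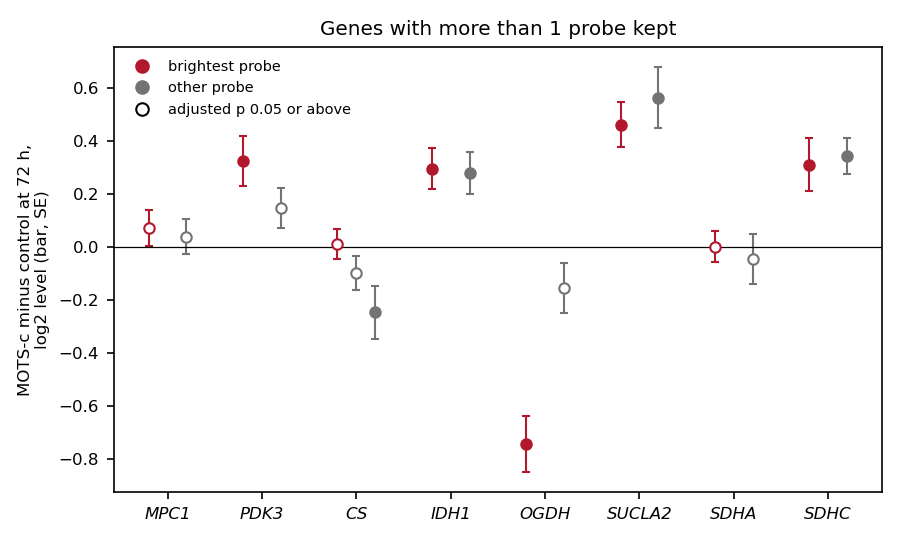
Difference in log2 level between MOTS-c and control cells at 72 h for each kept probe of the 8 genes with more than 1, with SE bars; red marks the brightest probe, which stands for the gene elsewhere, and filled points have an adjusted p under 0.05. OGDH shows the widest gap between probes (-0.75 and -0.15), and the probes of CS spread from 0.01 to -0.25.

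Genes that bring carbon into the cycle or take it out were counted from a separate list. Of 11 measured, 7 were called higher at 72 h and none lower, with a median difference of 0.21, where 22.1% of all genes were called higher and 22.9% lower. They were PCCB (0.50) and PCCA (0.19), the subunits of propionyl-CoA carboxylase, GLUD1 (0.40), which converts glutamate to oxoglutarate, the malic enzymes ME1 (0.35) and ME2 (0.29), and the lactate dehydrogenase subunits LDHB (0.22) and LDHA (0.21). Those not called were PCK2 (-0.13), GOT1 (-0.04), GOT2 (-0.15) and ACLY (0.09). Among genes that attach lipoate to the E2 enzymes, 1 of 3 measured was called, LIPT1, lower by 0.31 (limma adjusted p = 0.00175). Among the 4 assembly factors of succinate dehydrogenase, SDHAF1 alone was called, higher by 0.16 (limma adjusted p = 0.0137). Both counts stand beside the 45.1% of all genes called at 72 h. At 4 h no gene of these lists was called.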

How the data were processed

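RNA of 24 HEK293 samples was measured on Illumina bead arrays, 1 per sample. Arrays were read with GenomeStudio 2011.1, per the submitters' processing notes. The deposited table holds a raw bead intensity and a detection p-value per probe and array. A second deposited table holds a score, recomputed here as the Z score of log10 intensity within an array (largest difference 5e-10).

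In R 4.3.3 with limma 3.58.1, neqc corrected background, applied quantile normalization (offset 16) and gave log2 levels. Kept probes were annotated to 1 gene and had a detection p under 0.05 on 6 arrays or more, and the brightest stood for its gene. One limma model with a mean per group (20 residual degrees of freedom) gave all contrasts, two-sided, with Benjamini-Hochberg adjustment over 13283 genes. The method was tested on simulated data for the 72 h comparison, with 100 genes changed at each of 2 sizes. It recovered 45% of log2 changes of 0.3 and 95% of those of 0.6, with 8 false calls. Fewer genes were changed there than were called in the data. The adjustment was therefore stricter there, and these shares need not hold for the data. A member that was not called may still have changed by a small amount. The number of arrays limits the precision. Group sizes were n = 6. The members, lists and motifs were chosen with earlier results of these data known. Every member is named with its 72 h difference. Levels are given for members called at 4 h, the 6 largest calls each way at 72 h, the 4 largest between effects, the 4 largest each way with time in controls, and the kinases, PDP1 and PDHA1. The change with time in treated cells was added after seeing the data. Alternatives covered background correction, scaling, detection filters, probe choice, the arrays fitted, weights per array, a robust variance prior, array brightness, a replicate block, the threshold and leaving out each array. Python 3.11.15 with matplotlib 3.10.9 drew the figures. Sequences are from RefSeq. The sources used here do not say that replicate numbers pair samples, and the correlation of same-numbered arrays' deviations was -0.23 to 0.093 (4 h) and -0.15 to 0.16 (72 h).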

Additional observations from a re-analysis of the deposited data

Results flagged for a closer look

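Some arrays lay far from the other 5 of their group by Dixon's criterion. Control replicate 5 at 72 h was the highest for DLAT (8.91, the next at 8.65), PDHX (9.24, the next at 8.65), SUCLA2 (9.42, the next at 8.93) and SDHD (9.97, the next at 9.38). PDHB was highest in MOTS-c replicate 4 at 72 h (11.43, the next at 11.36). DLST was lowest in MOTS-c replicate 3 at 4 h (8.58, the next at 8.77), and SUCLG2 in control replicate 6 at 4 h (8.65, the next at 8.99). These were 7 of 120 gene and group pairs, 5.83%, where chance gives about 1 in 20.

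The effect of MOTS-c differed between 4 h and 72 h by the test of that difference (limma adjusted p under 0.05) for 15 members. The 72 h effect minus the 4 h effect was 0.48 for MPC2, 0.25 for PDHA1, -0.38 for PDHB, 0.39 for DLAT, 0.85 for PDHX, 0.35 for PDK2, 0.42 for PDK3, 0.58 for PDK4, 0.71 for PDP1, 0.28 for ACO1, 0.31 for IDH2, -0.88 for OGDH, 0.22 for SUCLG1, 0.40 for SUCLA2 and 0.50 for SDHD.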

How the results depend on the processing

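Over 37 other settings the count of members called at 72 h ran from 15 to 20, and at 4 h it was 0 in all. With time it ran from 19 to 25 in controls and from 9 to 17 in treated cells. The count for the difference between effects was 15 and ran from 8, at an adjusted p under 0.01, to 19. Leaving out 1 array at a time gave 17 to 19 members at 72 h, 12 to 17 for the difference between effects, 22 to 23 with time in controls, 11 to 13 with time in treated cells and 0 at 4 h. At 72 h the 19 called members kept their sign under every setting, and 20 of 30 members kept both their sign and their side of the threshold. PDK2, SDHD, MDH1, SDHC and SUCLG1 lost their call under some, and IDH3G gained one under 5. Of uncalled members, SDHA changed sign under 10 settings, CS under 6 (called under 1 of them) and MDH2 and PDK1 under 2 each. Over all genes, 2980 were called in the difference between effects at an adjusted p under 0.01 against 4522, and at 4 h the count of 1 became 33 with array brightness as a covariate and ran from 0 to 15 with 1 array left out.

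Another setting took, for each gene and comparison, the probe with the smallest adjusted p, which favours calls. It is among the settings counted above. It reversed the CS values at 72 h (-0.25) and for the difference between effects (-0.43). The MPC1 change with time in controls (0.36) and the PDK3 change with time in treated cells (-0.22) were also reversed. Another probe of each gene gave these values. With array brightness as a covariate, the change with time in treated cells was -0.31 for IDH3G and 0.33 for PDK4; the cause was not tested. With the replicate number as a block, 19 members were called at 72 h, 15 for the difference between effects, 23 with time in controls, 12 with time in treated cells and 0 at 4 h. No array correlated best with the one of its own number (0 of 6 at each time). With so few arrays this cannot decide whether the numbers pair samples, and pairing between the times was not examined. The array chip as a block was not run, since the headers used here name no chip. PDK1, PC and PDP1 lay near background, which limits what their probes show.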

Other observations

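The branched-chain keto acid dehydrogenase complex is built like pyruvate dehydrogenase and also uses DLD. Of 6 measured genes of complexes related to it, 2 were called higher at 72 h and 1 lower, beside 22.1% and 22.9% of all genes tested. BCKDHB, an E1 subunit of that complex, was higher by 0.57 (SE 0.09, limma adjusted p = 1.01e-05), and DHTKD1, an E1 enzyme related to OGDH, was higher by 0.29. BCKDK, the kinase that inactivates the branched-chain complex, was lower by 0.32 (SE 0.07, limma adjusted p = 0.000424). BCKDHA (-0.09), DBT (0.04) and OGDHL (-0.28) were not called.

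Of 6 genes for regulators known to act on the kinase genes, HIF1A was higher by 0.53 (limma adjusted p = 6.29e-05) and PPARA by 0.49 (limma adjusted p = 0.00478) at 72 h. ESRRA, the oestrogen-related receptor alpha, was lower by 0.23 (limma adjusted p = 0.0386). FOXO1 (0.14), PPARGC1A (0.21) and PPARD (-0.06) were not called, and 45.1% of all genes tested were called at this time. At 4 h none of the 12 genes of these groups was called by limma.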
